A study of Mus musculus with 11 samples.

Results

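The genes described here are 10 members of the epidermal growth factor (EGF) signalling system in mouse liver: 6 genes for ligands of the EGF receptor (Areg, Ereg, Btc, Hbegf, Tgfa and Egf), 3 genes for receptors (Egfr, Erbb2 and Erbb3) and Errfi1, which encodes a feedback inhibitor of these receptors. They were taken by symbol from a table of 20893 genes measured by bulk RNA-seq in 11 livers of C57BL/6 mice, and all 10 symbols were found in it. The 4 control livers carried ROSA26-rtTA-IRES-EGFP without tetYAP (labelled WT) and came from mice fed doxycycline for 7 days. The induced livers carried ROSA26-rtTA-IRES-EGFP together with tetYAP, and 4 of them were taken after 3 days of doxycycline food and 3 after 7 days. All 11 mice therefore carried the rtTA allele and received doxycycline, and the 3-day mice received it for less time than the controls. According to the study's methods the tetYAP transgene encodes a constitutively active YAP, a transcriptional co-activator that works with TEAD factors, and an Alb-CRE allele, active in hepatocytes, was bred in to switch on rtTA. Whether the control mice carried Alb-CRE, and the age of the mice, are not given in the sources used here. RNA came from homogenized whole liver, so the values cover all of its cell types, and fewer cells of a type cannot be told apart from less RNA per cell. The question put to these values was how the level of each member differed between livers with YAP switched on for 3 or 7 days and control livers.

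EGF-family ligands are made as membrane-anchored precursors and are released by metalloproteases of the ADAM family. Binding of a ligand lets EGFR pair with itself or with ERBB2 or ERBB3. ERBB2 binds no ligand of its own, and ERBB3 binds neuregulins and signals mainly through its partner because its own kinase activity is weak. The activated pair recruits adaptors and switches on the Ras-MAPK and PI3K-AKT pathways, and ERRFI1 (also called MIG6) binds the kinase domain and damps the signal. In the liver this system is known for driving hepatocyte proliferation during regeneration.

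Values are eRPKM, a form of RPKM, which divides the reads on a gene by its length and by library size, so a value is a share of its own library and is on a scale per length. The values of abundant genes were lower in deeper libraries, which limits comparisons between livers and with low genes, as described with Egfr and Errfi1. Control libraries held 1251396 to 5495697 reads on genes, 3-day libraries 2660233 to 3681416 and 7-day libraries 5312486 to 5941357. Control liver 4 was the shallowest of all and liver 1 the shallowest of the 3-day livers. The deposited columns of 3-day livers 1 and 4 and of 7-day liver 2 carry the suffix MF, and no control column does. The meaning of this suffix is not given in the sources used here. By Xist and the Y-linked Ddx3y, controls and 3-day livers were 2 female and 2 male each, and the 7-day group held 3 females and no male, so that group and sex are partly confounded. A fold change is a difference of log2(eRPKM + 0.5), which understates the change of low genes, and a gene was called at a limma adjusted p under 0.01 with a change above 0.5 in either direction. A total of 14244 genes reached at least 0.5 eRPKM in at least 3 livers and were tested. Of the 10 members 8 passed this filter, and Areg and Egf did not. Among the check genes of YAP activity, 6 of 7 were called higher at 7 days and none lower. The largest log2 fold changes among them were those of Tead4 (3.98), Ankrd1 (3.88), Ctgf (3.49) and Cyr61 (3.27). At 3 days limma called 0 of the 7, although every 3-day liver lay above every control for Cyr61 (log2 fold change 1.99, adjusted p = 0.0117), Ctgf (1.41, adjusted p = 0.0834) and Amotl2 (1.31, adjusted p = 0.128) and below every control for Ankrd1 (-0.94, adjusted p = 0.11). Amotl2 was named after its values were seen. Alb, the hepatocyte marker, stood at 234 to 918 eRPKM over all livers, as the tissue label says.

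At 7 days against control 2 members, the ligand genes Hbegf and Tgfa, were called higher and 1, the receptor gene Erbb3, was called lower. Over all genes tested 18% were called higher and 5.77% lower in this comparison, so the members' 2 and 1 of 8 lie near that background. This split of 2561 genes higher and 822 lower depends on the scaling. It was 1950 and 1255 with median-ratio size factors and 1857 and 1821 after quantile normalization, where the median of all genes moved from 0.26 to 0.02 and -0.08. Relative to the median of all genes the changes at 7 days were 2.06 for Hbegf, 1.19 for Tgfa and -0.90 for Erbb3. At 3 days against control no member was called by limma, beside 0.0421% of all genes called higher and 0% called lower. That comparison had 1718 genes of 14244 at an unadjusted p under 0.05, and among the members only Erbb3 was one of them. With limma-voom on recovered reads no member was called either. From 3 to 7 days 2 members rose, again Hbegf and Tgfa, and none fell, beside 14% and 5.31% of all genes. The median log2 fold change of the 8 members was 0.08 at 7 days against control, where that of all genes was 0.26.

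No promoter window was found for Hbegf, Ereg or Erbb3, so these members could not be searched. Promoter sequences are shown for 3 members: Tgfa, as a ligand gene that rose, and Erbb2 and Errfi1, as the members with a window that holds the TEAD core letters. They are RefSeq windows of the GRCm38.p6 assembly around an annotated start, written 5′ to 3′ on the gene's strand, which is plus for all 3. The windows were searched on both strands for GGAATG, the core of the motif bound by TEAD factors, and for TGACTCA, the AP-1 motif, and matches are in capitals. These motifs share no overlap. The windows are chr6:86194972-86195271 for Tgfa, chr11:98412234-98412533 for Erbb2 and chr4:150853546-150853845 for Errfi1.
Tgfa: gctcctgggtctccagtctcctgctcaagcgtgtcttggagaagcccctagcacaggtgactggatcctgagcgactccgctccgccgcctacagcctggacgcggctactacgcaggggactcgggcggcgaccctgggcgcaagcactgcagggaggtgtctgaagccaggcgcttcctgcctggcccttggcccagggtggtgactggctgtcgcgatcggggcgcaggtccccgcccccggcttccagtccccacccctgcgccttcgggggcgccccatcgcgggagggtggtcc
Erbb2: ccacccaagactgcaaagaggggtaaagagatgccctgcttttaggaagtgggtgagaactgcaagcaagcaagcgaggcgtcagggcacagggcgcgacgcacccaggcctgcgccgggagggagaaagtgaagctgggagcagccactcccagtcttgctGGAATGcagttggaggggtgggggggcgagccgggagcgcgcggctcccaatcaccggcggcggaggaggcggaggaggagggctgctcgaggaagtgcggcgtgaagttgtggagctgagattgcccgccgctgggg
Errfi1: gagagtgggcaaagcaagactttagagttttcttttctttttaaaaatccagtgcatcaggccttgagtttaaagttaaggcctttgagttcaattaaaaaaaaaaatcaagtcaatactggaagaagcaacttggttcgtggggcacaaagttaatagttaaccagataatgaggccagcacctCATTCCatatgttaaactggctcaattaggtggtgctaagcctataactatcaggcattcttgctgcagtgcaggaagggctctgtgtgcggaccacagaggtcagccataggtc
The Tgfa window held neither motif. The Erbb2 window held GGAATG on the gene's strand starting at position -88 from the annotated start, and the Errfi1 window held it on the other strand (CATTCC) starting at position -65, while a further window of Errfi1 held none. For comparison, 14.7% of all 32851 windows held GGAATG and 5.2% held TGACTCA. A match is a description of letters, not of a bound site. Windows of Areg, Btc, Egf and Egfr were also searched and held neither motif.

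**Figure D1:**
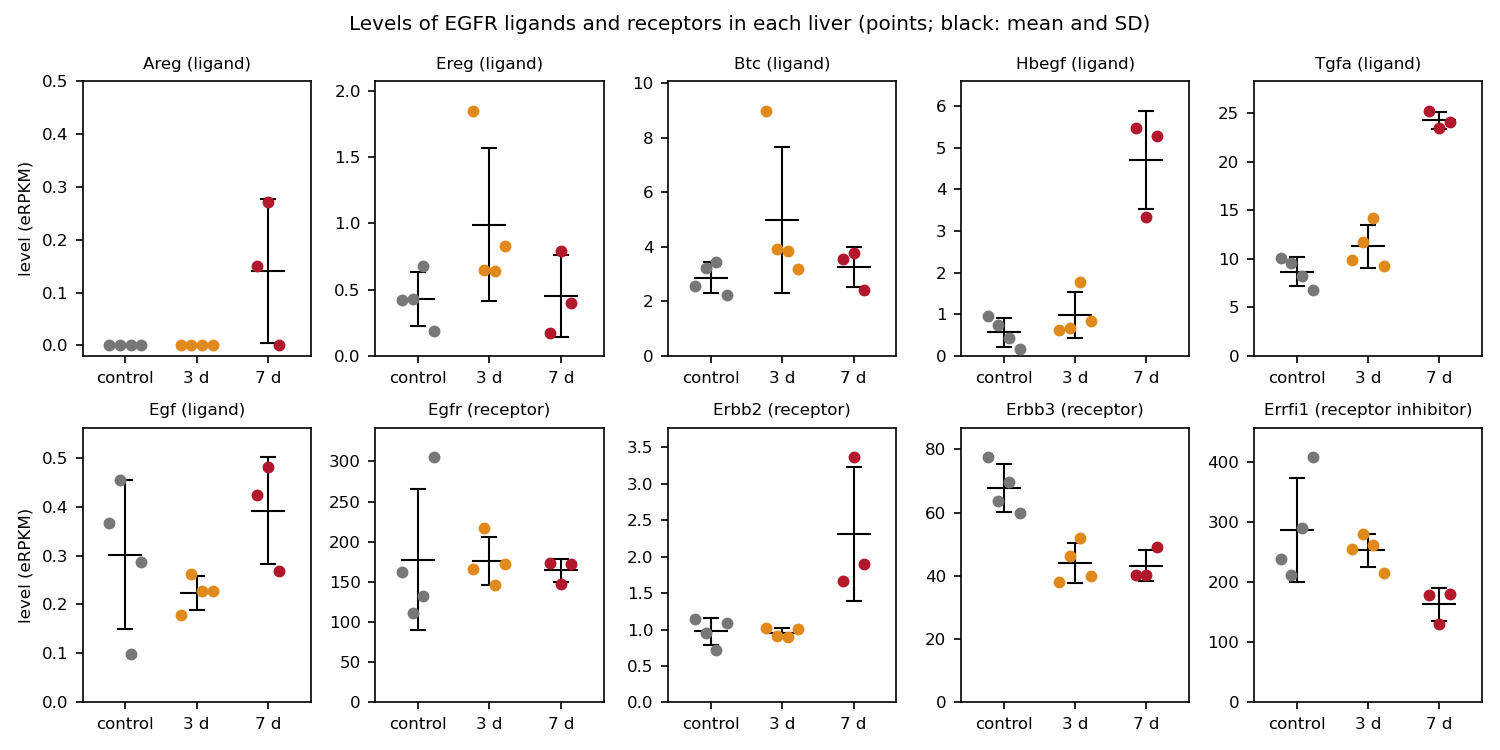
Level of each of the 10 genes in eRPKM (vertical axis, linear) in 4 control livers, 4 livers at 3 days and 3 livers at 7 days of YAP induction. Each point is a liver, and the black bar with whiskers is the group mean with its SD. Hbegf and Tgfa at 7 days lie above every control liver, Erbb3 lies below every control liver at both times, and Egfr groups overlap.

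Among the ligands, Tgfa (transforming growth factor alpha, chromosome 6, 86145420 to 86225151, plus strand, mm9) had the highest level in every liver. Control livers 1 to 4 had 10.1, 9.58, 8.26 and 6.79 eRPKM, 3-day livers 1 to 4 had 9.92, 11.7, 14.2 and 9.27, and 7-day livers 1 to 3 had 25.2, 23.5 and 24.1. The 3 livers at 7 days were close to each other and well above all others, while 2 of the 4 livers at 3 days lay above every control and the groups overlapped. Group means were 8.68 ± 1.47 eRPKM (SD, n = 4) for controls, 11.3 ± 2.20 (SD, n = 4) for the 3-day livers and 24.3 ± 0.885 (SD, n = 3) for the 7-day livers. Against control the 7-day livers were higher by 1.45 on the log2 scale (SE 0.19, limma adjusted p = 9.7e-05), and against the 3-day livers by 1.09 (SE 0.19, limma adjusted p = 0.00093). At 3 days the change against control was 0.36 with a 95% interval of -0.02 to 0.74 (adjusted p = 0.449). These values rest on 53 to 329 reads per control library and 800 to 872 reads at 7 days. Tgfa was called at 7 days in all alternatives tried, with changes of 1.14 to 1.52 against control.

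Hbegf (heparin-binding EGF-like growth factor, chromosome 18, 36664583 to 36675459, minus strand, mm9) showed the largest change among the 8 tested members. Control livers 1 to 4 had 0.948, 0.746, 0.426 and 0.164 eRPKM, 3-day livers had 0.616, 0.679, 1.78 and 0.836, and 7-day livers had 5.48, 3.35 and 5.29. In reads this was 1 to 20 per control library, 8 to 32 at 3 days and 97 to 143 at 7 days. Every 7-day liver lay above every control and every 3-day liver, and at 3 days only liver 3 lay above all controls. The means were 0.571 ± 0.346 (SD, n = 4), 0.979 ± 0.545 (SD, n = 4) and 4.71 ± 1.18 eRPKM (SD, n = 3), a ratio of means of 8.24 between 7 days and control. On the log2 scale the 7-day livers exceeded controls by 2.32 (SE 0.34, limma adjusted p = 0.00023) and the 3-day livers by 1.85 (SE 0.34, limma adjusted p = 0.0015). At 3 days the change against control was 0.46 with a 95% interval of -0.22 to 1.15 (adjusted p = 0.584). Over the alternatives the change at 7 days against control was 1.71 to 2.99, and it was called in each of them. The step from 3 to 7 days was no longer called among female livers only (1.55, adjusted p = 0.0166) and without 7-day liver 3 (1.76, adjusted p = 0.0102). Markers of other cell types moved in the same livers. The summed level of 7 macrophage markers was 177 to 350 eRPKM in controls, between 218 and 414 in the 3-day livers and between 700 and 752 in the 7-day livers, with 5 of 7 called higher at 7 days, none lower and none at 0 in a whole group (Clec4f 50.9 to 103 eRPKM in controls and 130 to 153 at 7 days). Neutrophil markers summed to 18.1 to 28.5 eRPKM in controls and 38.7 to 53.7 at 7 days, with 2 of 6 tested called higher (S100a8 1.98 to 11.3 and 14.0 to 22.6 eRPKM). Over all genes tested 18% were called higher and 5.77% lower. Stellate and fibroblast markers went the other way, with sums of 167.7 to 227.5 eRPKM in controls and 114.2 to 137.3 at 7 days. Of these 8 markers 1 was called lower and 0 higher (Des 5.088 to 6.137 and 4.175 to 5.271 eRPKM). Sums overlapped for endothelial markers (115.1 to 205.5 in controls, 191.9 to 226.0 at 7 days) and lymphocyte markers (3.042 to 10.02 and 7.967 to 12.53). Of 8 markers in each of these lists, 2 and 1 were called higher and 0 lower. Pecam1 stood at 10.72 to 19.45 eRPKM in controls and 20.53 to 25.73 at 7 days, and Cd3e at 0 to 1.596 and 0.3783 to 1.363. The part of these cell types in the rise of Hbegf and Tgfa was not tested.

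The genes whose course over the 7 induced livers was nearest to that of Hbegf were Rbbp8, Tmc6 and Spry1. The measure was the mean absolute difference in change of log2(eRPKM + 0.5) from the control mean, among genes with a mean of at least 1 eRPKM. Hbegf itself had lower means of 0.571, 0.979 and 4.71 eRPKM. The added 0.5 therefore shrinks its change more than theirs, and the likeness holds on this scale only. Rbbp8, which encodes a DNA end-resection factor, differed from Hbegf by 0.13 on average and had means of 4.56, 7.51 and 25.8 eRPKM in control, 3-day and 7-day livers. Tmc6 differed by 0.18, with means of 4.14, 6.02 and 22.4 eRPKM. Spry1, an inhibitor of receptor tyrosine kinase signalling, also differed by 0.18, with means of 4.16, 5.43 and 20.4 eRPKM.

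Btc (betacellulin, chromosome 5, 91786287 to 91831939, minus strand, mm9) and Ereg (epiregulin, chromosome 5, 91503643 to 91522675, plus strand) lie in a cluster with Areg (91568641 to 91577458, plus strand). Btc was at 2.58, 3.22, 3.46 and 2.22 eRPKM in control livers 1 to 4, at 8.99, 3.92, 3.87 and 3.21 in the 3-day livers, and at 3.56, 3.79 and 2.42 in the 7-day livers. Ereg was near the limit of detection, with 1 to 10 reads per control library, and stood at 0.421, 0.426, 0.682 and 0.188 eRPKM in controls, at 1.85, 0.647, 0.637 and 0.828 at 3 days and at 0.175, 0.789 and 0.398 at 7 days. For both genes 3-day liver 1 stood apart at the top of its group, and it is also the shallowest 3-day library (2660233 reads on genes). Like 3-day liver 4, it has a column with the suffix MF. This liver had the highest summed level of 8 cholangiocyte markers among the 3-day livers, 87.1 eRPKM against 44.6 to 79.0 in the others, most of it from Spp1 (mean 60.7 eRPKM at 3 days). Its Krt19 was the lowest of the 3-day livers (0.795 eRPKM against 1.15 to 1.73), and its Epcam (1.24) was below that of liver 4 (1.41). The part of depth, or of what the suffix marks, in its Btc and Ereg values was not tested. Neither gene was called in any comparison. At 3 days the log2 fold change was 0.61 for Btc (95% interval -0.03 to 1.26, adjusted p = 0.436) and 0.64 for Ereg (95% interval -0.02 to 1.30, adjusted p = 0.434). Without 3-day liver 1 these values were 0.32 and 0.40. At 7 days against control they were 0.15 for Btc (95% interval -0.54 to 0.85) and 0.01 for Ereg (95% interval -0.70 to 0.73).

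Areg (amphiregulin) was listed at 0 in all 4 controls and all 4 livers at 3 days, and in 7-day livers 1 to 3 it had 1, 2 and 0 reads. A count of 0 allows up to 3 reads per library, which is 0.441 to 1.94 eRPKM in the controls and 0.659 to 0.911 at 3 days, so no difference in Areg could be seen at this depth. Egf (chromosome 3, 129380493 to 129458240, minus strand, mm9) had 2 to 24 reads per library. It stood at 0.367, 0.455, 0.0991 and 0.286 eRPKM in controls, at 0.179, 0.263, 0.227 and 0.227 at 3 days and at 0.423, 0.481 and 0.269 at 7 days. The 7-day and control values of Egf overlapped, the 7-day livers lay above the 3-day livers, and neither Areg nor Egf was tested. Such a floor covers counting error only.

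The order of the ligand genes by mean level in controls was Tgfa, Btc, Hbegf, Ereg, Egf and Areg. The ranges of Hbegf and Ereg overlapped, as did those of Ereg and Egf, while Tgfa and Btc stood apart from their neighbours. At 7 days Hbegf, with a mean of 4.71 eRPKM, was above Btc, with 3.26, and their ranges overlapped. Summed over the 6 ligand genes, controls held 12.9 ± 2.25 eRPKM (SD, n = 4), the 3-day livers 18.5 ± 3.31 (SD, n = 4) and the 7-day livers 33.2 ± 1.56 (SD, n = 3), which did not overlap the others. Tgfa made up 63.9% to 70.4% of this sum in controls and 72.1% to 74.2% at 7 days. Hbegf made up 1.70% to 6.58% in controls and 10.4% to 16.3% at 7 days, and Btc went from 17.9% to 26.8% in controls to 7.44% to 11.8% at 7 days. In 3-day liver 1, Btc alone made up 41.7%, the highest share in any liver.

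**Figure D2:**
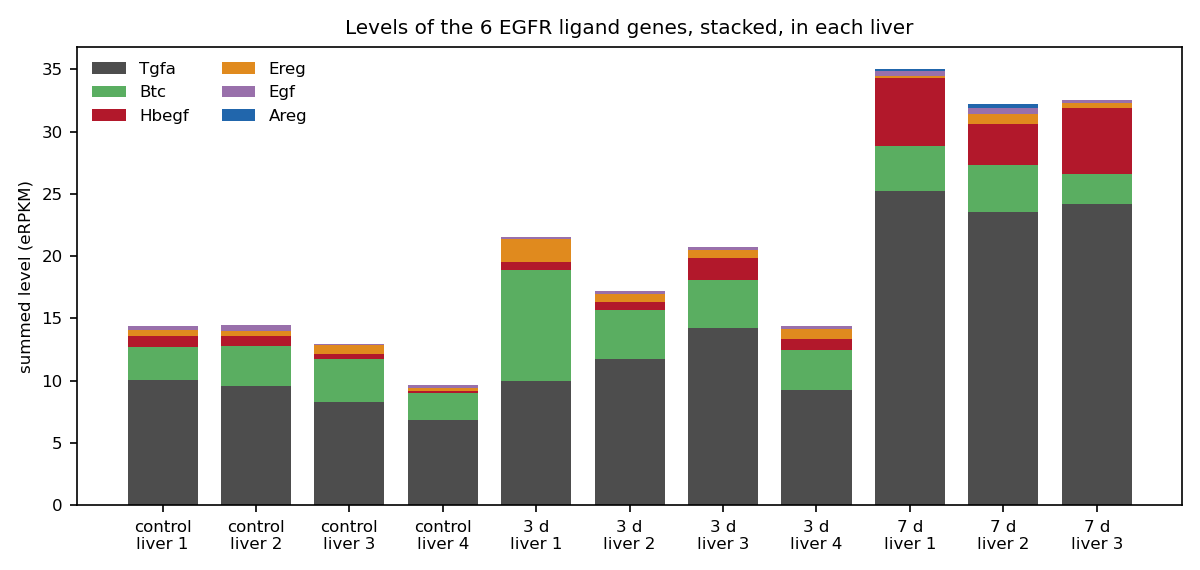
Summed level of the 6 ligand genes in eRPKM (vertical axis) in each of the 11 livers, with each gene as a coloured segment. Tgfa is the tallest segment in every liver, and the 7-day bars reach 32.2 to 35.0 eRPKM where control bars reach 9.65 to 14.4.

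Among the receptors, Erbb3 (chromosome 10, 128004579 to 128026708, minus strand, mm9) lay below every control at both times. Control livers 1 to 4 had 77.5, 63.6, 69.8 and 60.0 eRPKM, 3-day livers had 38.0, 46.2, 51.9 and 40.1, and 7-day livers had 40.4, 40.4 and 49.1. The lowest control was above the highest induced liver, and the 3-day and 7-day livers overlapped. The means were 67.7 ± 7.65 (SD, n = 4), 44.1 ± 6.26 (SD, n = 4) and 43.3 ± 5.02 eRPKM (SD, n = 3). Erbb3 was called lower in the 7-day livers, with a change of -0.64 (SE 0.15, limma adjusted p = 0.0058). At 3 days it was of like size, -0.62 (SE 0.14, unadjusted p = 0.00083 by limma), and failed the threshold after adjustment (adjusted p = 0.0886). Between 3 and 7 days the difference was -0.02 with a 95% interval of -0.35 to 0.31. In the 3-day comparison 2.25% of all genes tested had every induced liver below every control, and 3.38% had every induced liver above, and Erbb3 was the only member in either class. The 7-day call sits close to the threshold. It was lost without control liver 1 (adjusted p = 0.0195) or 3 (0.0165), without 7-day liver 1 (0.0316), 2 (0.0293) or 3 (0.0103), and among female livers only (0.0307), where the log2 fold changes were -0.73 to -0.57. It was also lost with log2 Xist (-0.64, adjusted p = 0.0137) or log2 depth (-0.74, adjusted p = 0.0126) as a covariate and with the 2 deepest controls only (-0.70, adjusted p = 0.0179). Hepatocyte markers summed to 1594 to 4549 eRPKM in controls, 1924 to 2334 in the 3-day livers and 1191 to 1348 in the 7-day livers, and 3 of 8 (Ttr, Apoa2 and Tat) were called lower and none higher at 7 days. This sum rests on abundant genes whose reads hardly grew with depth (Alb 2417 to 3102 reads in every library), and its highest value came from control liver 4, the shallowest, so less hepatocyte RNA and greater depth cannot be told apart in it.

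Erbb2 (chromosome 11, 98273784 to 98299030, plus strand, mm9) was low in controls, with 1.15, 0.953, 0.726 and 1.09 eRPKM. The 3-day livers had 1.02, 0.910, 0.897 and 1.002 and the 7-day livers 1.67, 3.36 and 1.90. All 3 livers at 7 days lay above all others, and liver 2 stood highest. Liver 2 is the 7-day liver whose column carries the suffix MF. At 3 days the values of Erbb2 lay within the range of the controls. The means were 0.978 ± 0.186 (SD, n = 4), 0.957 ± 0.0628 (SD, n = 4) and 2.31 ± 0.919 eRPKM (SD, n = 3), from 7 to 27 reads per control library and 46 to 103 at 7 days. The log2 fold change at 7 days was 0.89 (95% interval 0.34 to 1.44) against control and 0.90 (95% interval 0.35 to 1.45) against 3 days. Neither passed the threshold (adjusted p = 0.0156 and 0.0165). Without 7-day liver 2 the change against control was 0.64 (adjusted p = 0.0741), after quantile normalization it was 0.35 (adjusted p = 0.244), and with limma-voom on recovered reads Erbb2 was called higher against control (1.16, adjusted p = 0.0095) and against 3 days (1.19, adjusted p = 0.0079). The summed level of 8 cholangiocyte markers was 43.1 to 53.4 eRPKM in controls and 68.0, 124 and 77.7 in 7-day livers 1 to 3. Like Erbb2, this sum was highest in liver 2, and most of it was Spp1 (67.4 ± 25.1 eRPKM, SD, n = 3, at 7 days). The defining markers of this list are Krt19 and Epcam. Krt19 stood at 2.37, 4.28 and 7.18 eRPKM in 7-day livers 1 to 3 (controls 0.181 to 2.26) and was highest in liver 3, and Epcam stood at 2.11, 1.27 and 1.60 (controls 0 to 1.28) and was lowest in liver 2. Of 6 of these markers tested 1 was called higher at 7 days and none lower. The part of these cells in the Erbb2 values was not tested. Exons of Erbb2 overlap those of 1810046J19Rik on the other strand, and because the alignment used no strand information, reads of the overlap cannot be assigned to either gene.

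Egfr (chromosome 11, 16652206 to 16818161, plus strand, mm9), the receptor of all 6 ligands, was the most abundant receptor gene in every liver. Controls had 162, 111, 133 and 305 eRPKM, 3-day livers had 167, 217, 146 and 173, and 7-day livers had 173, 148 and 172. The groups overlapped, and every induced liver lay within the range of the controls. The top of this range was set by liver 4, a male and the shallowest library. The male controls (162 and 305) lay above the female controls (111 and 133). All 7-day livers were female and lay above both female controls. The log2 fold change was 0.08 at 3 days (95% interval -0.48 to 0.64) and 0.00 at 7 days (95% interval -0.61 to 0.60), and these intervals leave room for changes of that size in either direction. Among female livers only the change at 7 days was 0.43 (limma adjusted p = 0.102). With log2 Xist as a covariate it was 0.19 (limma adjusted p = 0.608). By mean level Egfr stood at 178, 176 and 164 eRPKM in the 3 groups, Erbb3 at 67.7, 44.1 and 43.3, and Erbb2 at 0.978, 0.957 and 2.31, and the ranges of these receptors did not touch in any group.

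**Figure D3:**
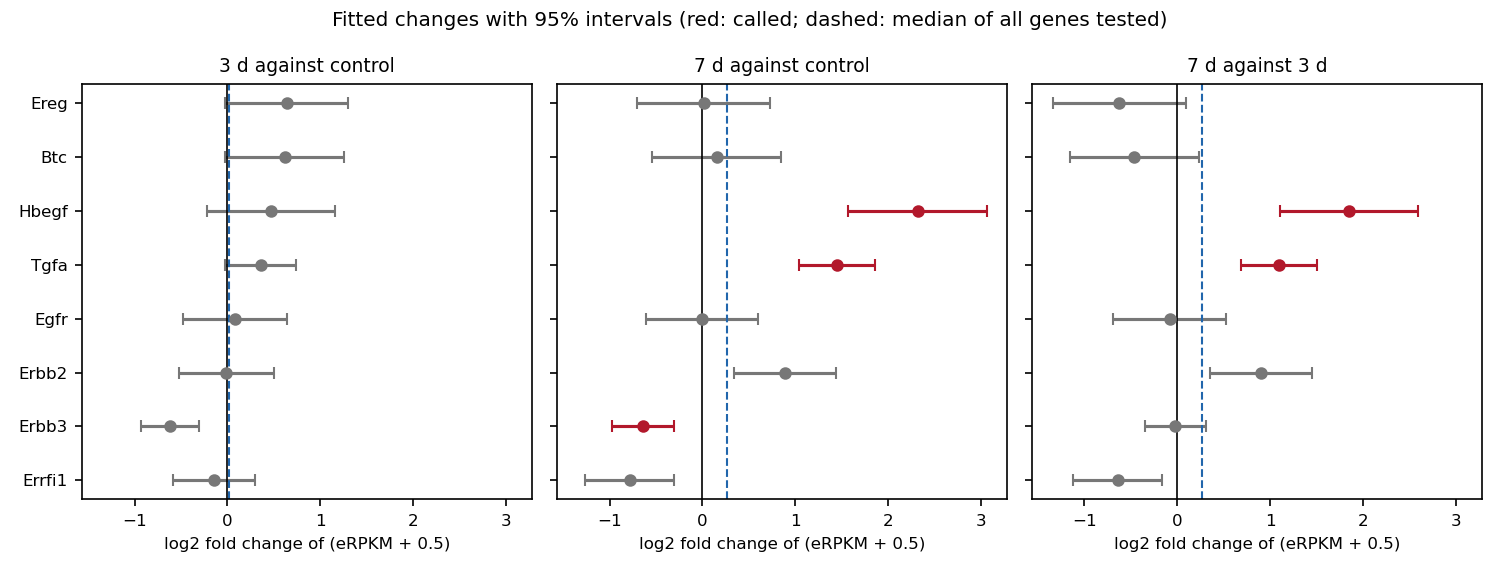
Fitted log2 fold change of (eRPKM + 0.5) with its 95% interval (horizontal axis) for the 8 members that were tested, in the 3 comparisons. Red points were called, and the dashed line is the median of all genes tested. Hbegf at 2.32 and Tgfa at 1.45 are to the right and Erbb3 at -0.64 to the left at 7 days against control, and no point is red at 3 days.

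Errfi1 (chromosome 4, 150228028 to 150243001, plus strand, mm9), the feedback inhibitor, had the highest mean of all 10 genes in controls. Controls had 238, 212, 290 and 407 eRPKM, 3-day livers had 254, 279, 262 and 214, and 7-day livers had 179, 130 and 179. All 7-day livers lay below all controls and all 3-day livers, while the 3-day livers lay within the control range. The means were 287 ± 86.6 (SD, n = 4), 252 ± 27.6 (SD, n = 4) and 163 ± 28.2 eRPKM (SD, n = 3). The log2 fold change at 7 days was -0.78 (95% interval -1.26 to -0.31, adjusted p = 0.0137) against control and -0.64 (95% interval -1.12 to -0.16, adjusted p = 0.038) against 3 days, and neither was called. Without control liver 2 the change against control was called (-0.91, adjusted p = 0.0063), as it was with limma-voom (-0.76, adjusted p = 0.0066). In the 7-day comparison with control, 3 of the 8 tested members lay above every control liver (Hbegf, Tgfa and Erbb2) and 2 lay below (Erbb3 and Errfi1), beside 36.7% and 13.3% of all genes tested. Against the 3-day livers 3 lay above and 1 below, beside 31.3% and 13.8%.

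Between control livers 4 and 2 the reads on the members did not all grow in step with depth, and the direction differed between abundant and less abundant genes. Between control liver 4 and control liver 2 the reads on all genes grew 4.39-fold, from 1251396 to 5495697. Liver 4 was male and liver 2 female, so depth, sex and animal cannot be told apart in this pair. Reads on Errfi1 grew 2.29-fold, from 1860 to 4260, and reads on Egfr grew 1.60-fold, from 2595 to 4158, while those on Erbb3 grew 4.67-fold and those on Tgfa 6.21-fold. Reads on Alb lay between 2417 and 3102 in all 11 libraries. Among the 891 genes with a mean of at least 300 reads per kilobase, to which Egfr (643) and Errfi1 (857) belong, the median growth was 2.96-fold, and it was 6.0-fold among the 7299 genes with 30 to 300 reads per kilobase, to which Tgfa (61.7) and Erbb3 (202) belong. It was 6.74-fold among the 4446 genes with 3 to 30 reads per kilobase, to which Btc (14.3), Hbegf (9.10) and Erbb2 (5.89) belong. Among the 770 genes under 3 reads per kilobase, to which Ereg (2.39) belongs, it was 5.0-fold. The deeper of these controls thus had lower eRPKM for most abundant genes and higher eRPKM for most others, and the 7-day libraries were the deepest as a group. The median log2 fold change at 7 days was -0.50 in the most abundant class, 0.23 in the next, 0.47 in the third and -0.07 in the lowest. It thus did not rise steadily as abundance fell. With log2 depth as a covariate the 7-day changes of Hbegf and Tgfa were 1.83 (adjusted p = 0.0047) and 1.20 (adjusted p = 0.0019), smaller than without it and still called. In the same fit that of Errfi1 was -0.36 (adjusted p = 0.118) and that of Egfr 0.53 (adjusted p = 0.13), and after quantile normalization Errfi1 was at -0.12 (adjusted p = 0.522) and Egfr at 0.65, which was called higher (adjusted p = 0.0085). How duplicate reads were handled is not given in the sources used here.

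**Figure D4:**
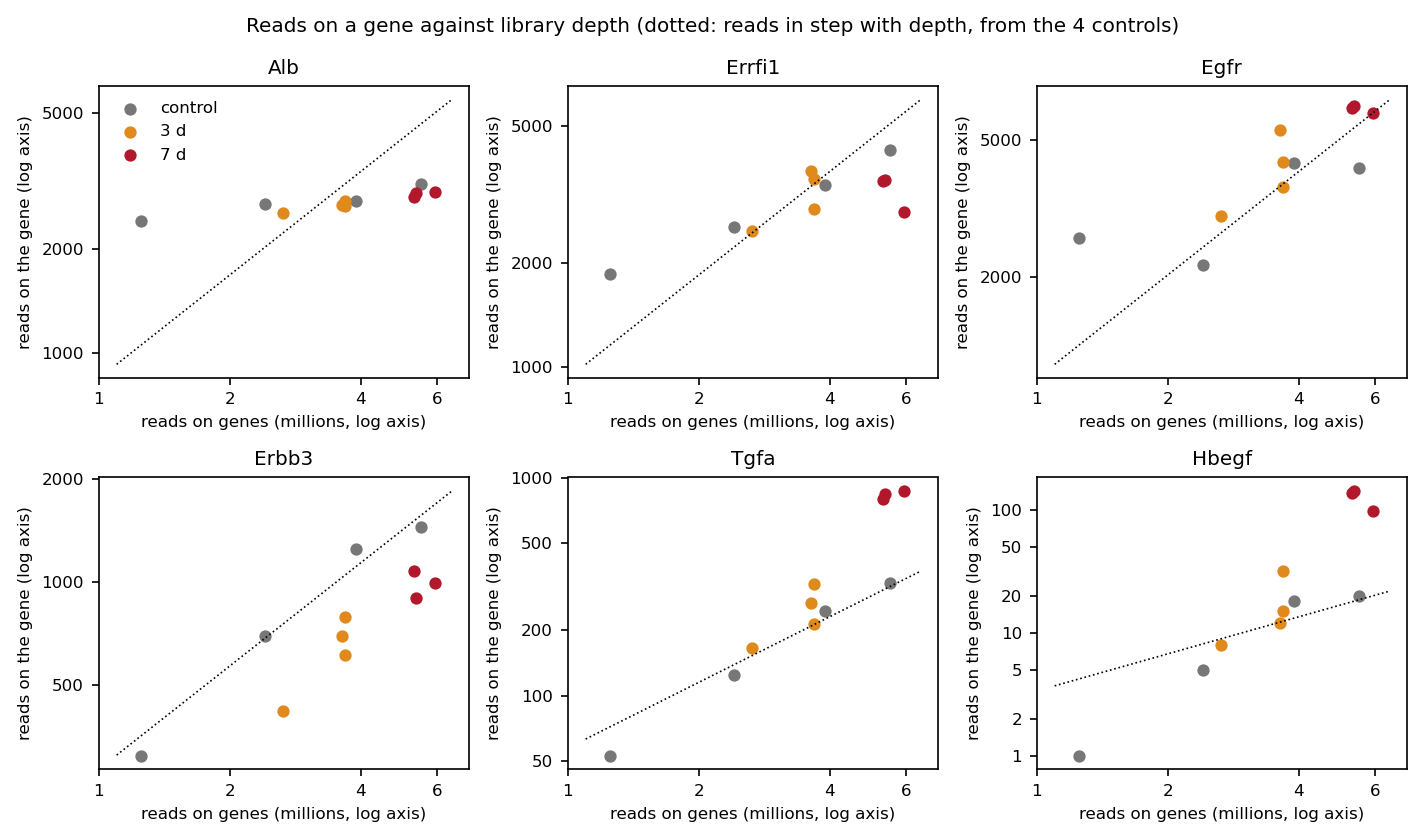
Reads on a gene against all reads on genes in the library (both axes log scale) for Alb, Errfi1, Egfr, Erbb3, Tgfa and Hbegf in 11 livers, with a dotted line for reads that grow in step with depth. Alb stays between 2417 and 3102 reads, Errfi1 and Egfr in control liver 4 lie above the line, and Tgfa and Hbegf at 7 days lie above it.

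The rest of the pathway was counted with the same fit, in lists that were drawn up with earlier results of these data known. At 3 days against control 0 genes of the 5 pathway lists were called. At 7 days Nrg1, the neuregulin ligand of ERBB3 and ERBB4, was the 1 gene called of 3 tested among 6 further ligands and receptors of the family. It stood at 0.725, 0.557, 0.636 and 1.32 eRPKM in controls, at 2.03, 5.10, 7.58 and 2.27 at 3 days and at 25.3, 23.9 and 20.7 at 7 days. Its groups did not overlap, and its change was 4.21 (SE 0.38, limma adjusted p = 7.8e-06) after the longer induction and 1.72 (SE 0.35, limma adjusted p = 0.0674) after the shorter. At 3 days the livers with the highest Nrg1, livers 3 and 2, were also those with the highest Tgfa (14.2 and 11.7 eRPKM) and Cyr61 (53.4 and 48.3 eRPKM). Hbegf did not follow this order, since it was highest in liver 3 (1.78 eRPKM) but lower in liver 2 (0.679) than in liver 4 (0.836). Livers 3 and 2 are the 3-day livers whose columns lack the suffix MF. The part of what this suffix marks in these values was not tested. Erbb4 had a log2 fold change of 0.75 (adjusted p = 0.0721) and Nrg4 of -0.41 (adjusted p = 0.495) at 7 days. Nrg4 and Erbb4 were named after their values were seen.

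Of 10 sheddases and their regulators, which release EGF-family ligands from the membrane, all were tested and 6 were called higher and none lower at 7 days, with a list median of 0.88 beside 0.26 for all genes, of which 18% were called higher and 5.77% lower. Rhbdf1 and Rhbdf2, which encode the iRhom partners that ADAM17 needs to mature, had log2 fold changes of 3.34 (SE 0.42, adjusted p = 7.4e-05) and 1.74 (SE 0.24, adjusted p = 0.00015). Rhbdf1 went from 3.09 ± 0.644 eRPKM (SD, n = 4) in controls to 35.6 ± 2.98 (SD, n = 3), and Rhbdf2 from 3.85 ± 1.17 to 13.8 ± 2.85. The metalloprotease genes Adam15 and Adam8 had log2 fold changes of 1.87 (adjusted p = 8.3e-05) and 1.43 (adjusted p = 0.0045). Adam15 was called in all 26 alternatives, and the call of Adam8 was lost in 10 of 25 (changes of 0.99 to 2.12, adjusted p up to 0.0345). Adam17 itself, the main sheddase of TGFA and HBEGF, had 0.86 (adjusted p = 0.003) and Adam10 0.90 (adjusted p = 0.0019), and these were named after their values were seen to complete the 6. With log2 depth as a covariate, or with the 2 deepest controls only, 3 of the 10 were called.

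Of 25 receptor adaptors and Ras-MAPK core genes, all tested, 8 were called higher and 1 lower at 7 days, and the list median was 0.22 beside 0.26 for all genes, of which 18% were called higher and 5.77% lower. The largest rises were in Gab2, a docking adaptor (1.81, adjusted p = 0.0011), Src, a tyrosine kinase (1.35, adjusted p = 0.00098), Pik3cb, a PI3K catalytic subunit (1.32, adjusted p = 0.0038), and Gab1, a docking adaptor (1.26, adjusted p = 0.005). The gene that fell was Sos1, a Ras exchange factor (-0.99, adjusted p = 0.0027), named after its value was seen. The calls of Gab1, Pik3cb, Gab2 and Src were lost in 10, 9, 3 and 2 of 26 alternatives, with adjusted p up to 0.0895, 0.0643, 0.0166 and 0.034. This list's count of 9 went to 4 without 7-day liver 1, to 4 without 7-day liver 3 and to 3 among female livers only. Of 25 negative regulators of receptor and MAPK signalling, 24 were tested and 6 were called higher and none lower, with a median of 0.48 beside 0.26 for all genes, of which 18% were called higher and 5.77% lower. The share called in this list, 6 of 24, is near that background. The called genes included Spry1 (2.36, adjusted p = 0.0012), the MAPK phosphatase genes Dusp1 (2.36, adjusted p = 0.00058) and Dusp7 (1.74, adjusted p = 8.9e-05), and Ptpn1, a tyrosine phosphatase (2.08, adjusted p = 3.0e-05). These were the largest rises of the list, so setting Errfi1 (-0.78, not called) below them carries no information. Spry4 (-0.69) and Lrig1 (-0.54) of this list also had negative changes that were not called, and were named after their values were seen. With log2 depth as a covariate the change of Errfi1 was -0.36.

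Genes that respond to MAPK signalling were the pathway list with the highest share called. Of 22, 19 were tested, 13 were called higher and 1 lower at 7 days, and the median log2 fold change was 1.98, beside 0.26 for all genes with 18% called higher and 5.77% lower. Plaur, the urokinase receptor gene, had 4.11 (SE 0.45, adjusted p = 3.1e-05), Fos, an AP-1 subunit, 3.63 (SE 0.36, adjusted p = 1.6e-05), Myc 3.09 (SE 0.64, adjusted p = 0.0023) and Emp1, a membrane protein gene, 2.94 (SE 0.44, adjusted p = 0.00026). Fos stood at 1.90, 0.843, 2.70 and 1.85 eRPKM in controls, at 1.91, 1.79, 3.15 and 0.881 at 3 days and at 36.5, 20.6 and 26.1 at 7 days, with no overlap between 7 days and the other groups. Phlda1 was the gene that fell (-1.72, adjusted p = 0.0095), named after its value was seen. The call of Myc was lost in 5 of 26 alternatives (adjusted p up to 0.0347). The count of 14 went to 9 without 7-day liver 1, to 9 with the 2 deepest controls only and to 7 with log2 depth as a covariate. Macrophage marker sums were 700 to 752 eRPKM in these 7-day livers and 177 to 350 in controls, and their part in these genes was not tested.

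**Figure D5:**
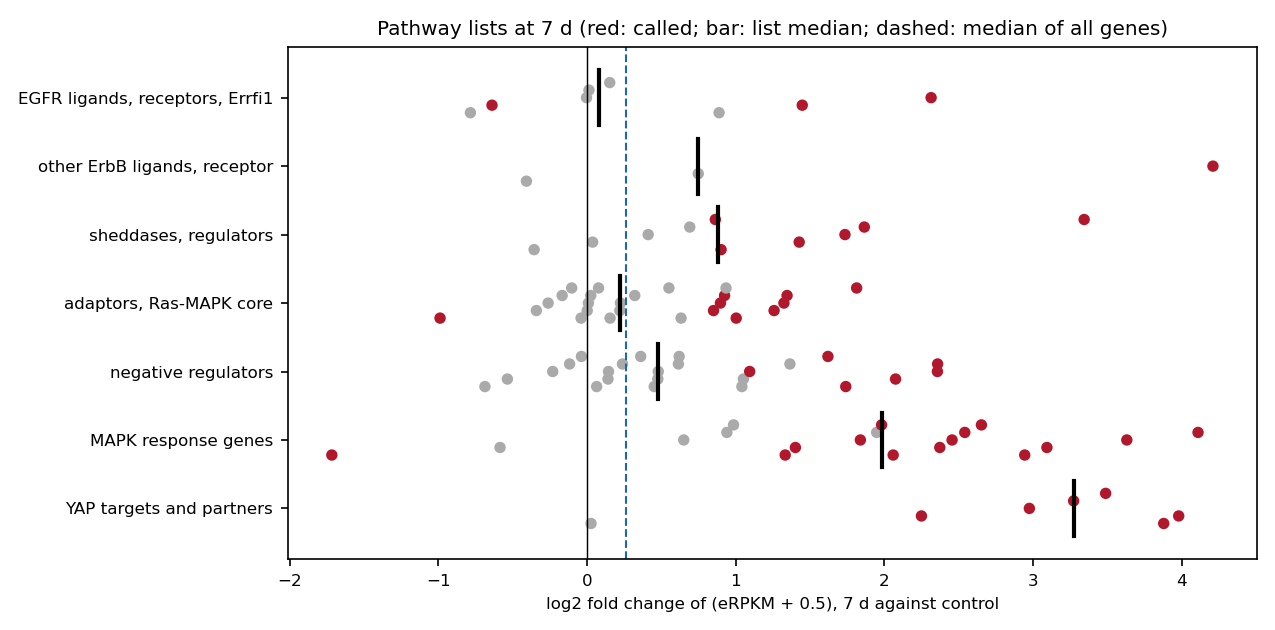
Log2 fold change at 7 days against control (horizontal axis) for each tested gene of the 10 members, the 5 pathway lists and the YAP check list, with red for called genes, a black bar for the list median and a dashed line for the median of all genes at 0.26. The MAPK response genes have a median of 1.98, and the members have a median of 0.08 with Hbegf and Tgfa at the right.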

How the data were processed

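Total RNA of homogenized livers was prepared with TruSeq v2 and sequenced. Per the study's methods and the submitters' processing notes, the authors masked low-quality bases and aligned read pairs to mm9 with TopHat2 2.0.8 without strand information, and featureCounts 1.4.5-p1 is among the tools named. The authors deposited 1 column of eRPKM for each liver (a form of RPKM, whose prefix is not explained in the sources used here), with replicates not pooled. The file also holds 3 columns of the authors' DESeq2 comparison of 7 days with control (mean reads, log2 fold change and adjusted p), which were not used. The gene annotation is not given in the sources used here.

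The eRPKM of low genes are whole multiples of a step per gene, and all 177553 values above 0 (100%) gave whole reads to within 0.1 read, which served for depth and for a limma-voom alternative. Groups came from the sample titles. The main test was a linear model in R 4.3.3 with limma 3.58.1 and a trended prior variance, fitted to log2(eRPKM + 0.5) of all 11 livers together for genes that reached 0.5 eRPKM in 3 or more livers, with Benjamini-Hochberg adjustment over 14244 genes. A call needed an adjusted p under 0.01 and a log2 fold change above 0.5 in either direction. On simulated reads for 7 days against control (13941 genes, a log2 fold change of 1.5 in 200) this called 172 (86%) in the right direction and 2 unchanged genes. The simulated reads grew in step with depth and shared 1 dispersion (0.0389). Reads on abundant genes here did not grow so, and false calls from depth were therefore not measured. Each liver is taken as 1 mouse, and p-values measure the spread between these livers. Members and lists were chosen with earlier results of these data known. The text names all 10 members and up to 4 called genes per pathway list with the largest change at 7 days. It names the 3 genes nearest to Hbegf and the defining cell type markers, and marks other names as chosen after their values were seen. The markers Ttr, Apoa2, Tat and Spp1 were also named after their values were seen. Positions are from GENCODE M1 on mm9. Promoter windows matched 7 of the 10 symbols, and none was found for Hbegf, Ereg or Erbb3. Alternatives were pseudocounts of 1 and 0.1, other filters, median-ratio and quantile scaling, 2 groups only, a robust prior, a block for replicate number, log2 Xist or log2 depth as a covariate, female livers only, leaving out each liver, limma-voom and a looser call (adjusted p under 0.05, no minimum fold), and after the data were seen the 2 deepest controls only.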

Additional observations from a re-analysis of the deposited data

Results flagged for a closer look

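Of 20 sets of 4 livers examined (the depth and each member but Areg, which was at 0 in all 8 of these livers, in controls and at 3 days), 3 had a liver far from the others by Dixon's ratio of the gap to the range at its 95% limit, where chance gives about 1 in 20. In each it was 3-day liver 1, with a ratio of 0.842 for Ereg (1.85 eRPKM against 0.637 to 0.828), 0.876 for Btc (8.99 against 3.21 to 3.92) and 0.946 for the reads on genes (2660233 against 3626710 to 3681416). The column of this liver carries the suffix MF. The part of depth, or of what the suffix marks, in the Ereg and Btc values was not tested.

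For 2 members the change differed between the induction times by a test of the difference itself, limma on 7-day against 3-day livers. Hbegf was 1.85 higher at 7 days on the log2 scale (adjusted p = 0.0015, above all 3-day livers in 3 of 3 livers) and Tgfa 1.09 higher (adjusted p = 0.00093, in 3 of 3 livers). All 3 livers at 7 days were female, and among female livers only these differences were 1.55 (adjusted p = 0.0166) and 1.05 (adjusted p = 0.0095).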

How the results depend on the processing

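Hbegf and Tgfa were called at 7 days against control under all 26 alternatives, and no called member changed direction in any. These alternatives are not independent checks. The looser call cannot lose a call, and leaving out a 3-day liver does not alter the 7-day change against control itself (2.32 for Hbegf, 1.45 for Tgfa). The count of members called at 7 days against control (3) was 5 with limma-voom and 5 under the looser call (adjusted p under 0.05, no minimum fold), where Erbb2 and Errfi1 were added, and 2 to 4 without 1 liver. Erbb3 lost its call among female livers only, with log2 Xist or log2 depth as a covariate, and with the 2 deepest controls only. After quantile normalization Egfr was called higher. From 3 to 7 days the count (2) was 1 among female livers only, 4 under the looser call, 3 with limma-voom, where Erbb2 was added, and 1 to 3 without 1 liver, the lowest being without 7-day liver 3. At 3 days it was 0 in every alternative. Of the lists at 7 days, sheddases (6 called) fell to 3 with log2 depth as a covariate and to 3 with the 2 deepest controls only, a choice made after seeing the data. Adaptors and Ras-MAPK core (9) went to 3 among female livers only, 4 with depth, 4 with the 2 deepest controls and 4 to 10 without 1 liver, negative regulators (6) to 10 under the looser call, and MAPK response genes (14) to 7 with depth, 9 with the 2 deepest controls and 9 to 15 without 1 liver. Of the YAP check genes at 3 days (0), 1 was called with median-ratio size factors, 1 with a robust prior, 1 with log2 Xist as a covariate, 1 under the looser call and 0 to 1 without 1 liver. The causes were not tested.

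Uncalled changes near 0 reversed sign. At 3 days Egfr (0.08) was -0.11 to 0.38 without 1 liver, Erbb2 (-0.01) was 0.06 after quantile normalization, 0.12 among females and -0.10 to 0.04 without 1 liver, and Errfi1 (-0.14) was 0.16 with the 2 deepest controls and -0.27 to 0.04 without 1 liver. At 7 days Ereg (0.01) was -0.01 with a pseudocount of 0.1, -0.10 with median-ratio factors, -0.32 after quantile normalization, -0.18 among females, -0.17 with limma-voom, -0.04 with depth and -0.23 to 0.24 without 1 liver, and Btc (0.15) was -0.08 with median-ratio factors, -0.53 after quantile normalization and -0.05 among females. From 3 to 7 days Egfr (-0.08) was 0.49 after quantile normalization, 0.13 with log2 Xist, 0.05 among females, 0.31 with depth and -0.17 to 0.02 without 1 liver, and Erbb3 (-0.02) was 0.07 after quantile normalization and -0.11 to 0.06 without 1 liver. With the replicate number as a block, Ereg at 7 days was -0.07 and Egfr from 3 to 7 days 0.06, and the counts of members called were 0, 3 and 2 as without it. Deviations from the group mean had correlations of -0.222 to 0.269 between samples of the same number. Samples of different number were not compared, so whether the number marks a pairing was not tested.

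Low read counts limit Areg, Egf and Ereg, and eRPKM that may depend on depth limit all members. No male liver was taken at 7 days, so an effect of induction in males at that time was not measured. With log2 Xist as a covariate and all livers kept, the 7-day changes were 2.21 for Hbegf (limma adjusted p = 0.000767), 1.43 for Tgfa (0.000318) and -0.64 for Erbb3 (0.0137).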
